A study of Mus musculus with 8 samples.

Results

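The CROP-seq library of this study, a pooled CRISPR screen in which each T cell carries a guide that is read together with its transcriptome, held 13 guides against 5 genes of phosphoinositide and second messenger metabolism: Plcg2, Dgkz, Ahcyl1, Pi4k2b and Adcy10. Their cells were chosen by the guide alone. A barcode was kept when 1 guide had been called in it, that guide targeted 1 of the 5 genes, and mitochondrially encoded genes took at most 10% of its unique molecular identifiers (UMIs, the counted molecules). This left 1244 of the 23337 kept single-guide cells and 13 of 280 guides. The comparison group was the 2730 cells with 1 of 34 nontargeting guides (sgNT). Dgkz had 1 guide and each of the other genes had 3.

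By design, the cells were CD8+ OT-I T cells, whose receptor recognises an ovalbumin peptide. They came from mice bred from the Rag2/OT-I and Rosa26-Cas9 lines, which express Cas9 constitutively (C57BL/6J background, young adults of either sex). They were transduced with the lentiviral library, selected for the CD90.1 marker of the vector, injected into the tail vein of Rosa26-Cas9 mice with an intact immune system and an orthotopic KPC_OVA tumour, and sorted as CD90.1+ cells from the primary tumour 7 days later. KPC_OVA is 1 mouse pancreatic cancer line that was made to express the ovalbumin peptide. From the day of transfer the mice received anti-PD-1 (3 libraries, anti-PD-1 replicates 1 to 3) or rat IgG as its control (1 library, IgG), so that the guide, the Cas9 and the tumour were shared by both treatments. Several mice were used per treatment, but how many of them each library held was not given in the sources used here. The expression p-values measure the spread left between sums of cells after differences between the 4 libraries were fitted, pooled over all targets or guides fitted. The p-values of cell numbers measure the spread between the 4 libraries. Neither measures a spread between mice.

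Of the 5 proteins, 4 act on or below the phosphoinositides and the fifth makes another second messenger. Phosphatidylinositol 4-kinase type 2 beta (Pi4k2b) phosphorylates phosphatidylinositol, the first step towards the lipid that phospholipase C splits into the messengers IP3 and diacylglycerol after the antigen receptor is engaged. Phospholipase C gamma-2 (Plcg2) is the form best known from B cells and myeloid cells, whereas T cells rely on Plcg1. Diacylglycerol kinase zeta (Dgkz) converts diacylglycerol to phosphatidic acid and is known in T cells as a brake on Ras and protein kinase C signalling below the receptor. Ahcyl1 (also called IRBIT) is a relative of S-adenosylhomocysteine hydrolase that binds the IP3 receptor and competes with IP3. Adcy10 is the soluble adenylyl cyclase, which makes cAMP in response to bicarbonate and calcium.

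The guides are shown because each of the comparisons below rests on where they direct Cas9. Each spacer is written from 5′ to 3′ in lower case, followed in capitals by the protospacer-adjacent motif (PAM) that the GENCODE transcripts give at its site. Positions are those of GRCm38 and cover the 20 bases of the spacer.
Plcg2_gRNA1: gggtgatgtcgacgtcaacgTGG
Plcg2_gRNA2: acagcggatatacgcttccgTGG
Plcg2_gRNA3: cattgtcgcatcaaccgggaCGG
Dgkz_gRNA1: gacccagtggtgtcttacgaAGG
Ahcyl1_gRNA1: cccaccaaacatcacatccgTGG
Ahcyl1_gRNA2: tgggggagacttaacccactGGG
Ahcyl1_gRNA3: agtgggctgtacgcacatcaCGG
Pi4k2b_gRNA1: ggcagaaagttccatcggatAGG
Pi4k2b_gRNA2: ccttccccggacaccgccggCGG
Pi4k2b_gRNA3: ttggcttaggaggtttgaagCGG
Adcy10_gRNA1: aggatgatgatgtactacccGGG
Adcy10_gRNA2: ttcatccccaaagaccaacaTGG
Adcy10_gRNA3: ctcacgagtcgagctctctg

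Of the 13 spacers, 12 lay whole in a coding exon of their gene and matched no transcript of another gene. Plcg2 (chr8:117498291-117635142, plus strand) was targeted in exon 15 of 33 at chr8:117586481-117586500 (gRNA1, plus strand), in exon 12 at chr8:117581695-117581714 (gRNA2, minus strand) and in exon 20 at chr8:117596281-117596300 (gRNA3, plus strand). The break of the gRNA3 site falls in codon 697 of 1265. The only Dgkz guide lay in exon 6 of 31 at chr2:91942332-91942351 (plus strand; the gene spans chr2:91932824-91975864 on the minus strand), with its break in codon 171 of 929. Ahcyl1 (chr3:107663118-107696560, minus strand) was targeted in exon 9 of 17 at chr3:107669922-107669941 (gRNA1, plus strand), exon 7 at chr3:107671214-107671233 (gRNA2, minus strand) and exon 4 at chr3:107674022-107674041 (gRNA3, minus strand). The gRNA1 spacer matched 1 of the 2 coding transcripts of Ahcyl1, and the other guides of this gene matched both.

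The Pi4k2b sites (gene at chr5:52741574-52769340, plus strand) were in exon 4 of 10 at chr5:52751518-52751537 (gRNA1, plus strand), in exon 1 at chr5:52741893-52741912 (gRNA2, minus strand) and in exon 5 at chr5:52753143-52753162 (gRNA3, plus strand). Pi4k2b_gRNA2 stood apart in its base composition, with 80% G and C against 45% to 60% in the other 12 guides. Adcy10 (chr1:165485183-165576774, plus strand) was targeted in exon 12 of 34 at chr1:165521807-165521826 (gRNA1, plus strand) and in exon 6 at chr1:165510279-165510298 (gRNA2, minus strand). Adcy10_gRNA3 matched no transcript over its full length. The reverse complement of its last 15 bases is the 3′ end of exon 17, so its site runs across the exon's edge and no PAM or position is given for it.

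Each of the 1244 targeted cells had a UMI of at least 1 of 6 CD8 T-cell marker genes (Cd3d, Cd3e, Cd3g, Cd8a, Cd8b1 and Trac). This held also for the cells below with many UMIs of another type, so it does not show that each was a CD8 T cell. Of the markers of other cell types, those of NK cells, which activated CD8 T cells can also express, were found in 102 to 163 cells of a target, those of gamma delta T cells in 72 to 120, those of B or plasma cells in 61 to 121, those of myeloid cells in 34 to 68, those of endothelial cells in 17 to 46 and those of fibroblasts in at most 1. The shares of sgNT cells with a UMI of these lists were 52.8% (NK), 42.3% (gamma delta), 39.1% (B or plasma), 22.8% (myeloid), 12.97% (endothelial) and 0.183% (fibroblast), against 48.8% to 57.4%, 36.4% to 44.0%, 30.8% to 43.2%, 17.2% to 26.8%, 8.59% to 19.6% and 0% to 0.478% of the cells of a target. Single cells carried many: 1 Dgkz cell held 12055 of the 12201 B or plasma cell UMIs of that target, and 1 Plcg2 cell held 160 of 367 myeloid UMIs. UMIs were also summed over the B or plasma cell, myeloid, epithelial, acinar, fibroblast, endothelial and erythroid lists together. Cells with at least 10 UMIs of this sum numbered 3 for Dgkz, 3 for Plcg2, 4 for Adcy10, 1 for Ahcyl1, 0 for Pi4k2b and 22 for sgNT. They are included unless stated. The 4 libraries totalled 142945121 to 155974184 gene UMIs, with a median per kept cell of 6298 in IgG and 11968.5 to 16744.5 under anti-PD-1. Pairs of libraries shared 3 to 20 barcodes and none of these had the same guide of the 5 genes.

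For each gene, the UMIs of all cells of a target were summed within a library and are given as CPM, the UMIs of the gene scaled to 1000000 gene UMIs of that sum. The targeted transcript was examined first, since it checks the guide labels. A guide alters the protein-coding sequence and need not lower the transcript, so this check is partial.

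Ahcyl1 was the targeted gene whose own transcript passed the test. In Ahcyl1 cells it stood at 23.02 CPM in IgG and at 20.8, 9.86 and 25.8 CPM in anti-PD-1 replicates 1 to 3. In sgNT cells of the same libraries it stood at 39.0, 43.1, 33.5 and 37.9 CPM. Every Ahcyl1 value was below every sgNT value. The log2 fold change was -0.88 ± 0.17 (SE; edgeR quasi-likelihood test over 4 libraries, Benjamini-Hochberg adjusted p = 0.0026 over 10020 genes). The 3 guides gave log2 fold changes of -0.90 ± 0.28, -0.71 ± 0.28 and -1.02 ± 0.40 in separate fits, with adjusted p of 0.25, 0.41 and 1.0. These values rest on 65 UMIs in 273 cells, and the call was lost without anti-PD-1 replicate 1 (-0.83), without anti-PD-1 replicate 2 (-0.77) and without IgG (-0.93). It was also lost when the 5 targets and sgNT were fitted alone, at adjusted p of 0.58 in edgeR and 0.32 in DESeq2, with the log2 fold change at -0.89 and -0.88. Under the other 9 of 14 alternatives, a minimum of 5 guide UMIs among them, it was kept. Ahcyl2, its close relative, had a log2 fold change of 0.14 ± 0.19 (adjusted p = 1.0).

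The Dgkz transcript stood at 69.6, 62.5, 94.6 and 71.2 CPM in Dgkz cells (IgG, then anti-PD-1 replicates 1 to 3) against 106, 88.7, 81.5 and 89.4 CPM in sgNT cells. It was lower in IgG and in replicates 1 and 3, and higher in replicate 2. The log2 fold change of -0.27 ± 0.12 did not pass (edgeR adjusted p = 0.56), nor did it without any 1 library (-0.46 without replicate 2 to -0.17 without IgG). The Dgkz cells thus still contained the transcript, with a UMI in 110 of 209 cells.

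The other 3 transcripts were too scarce for a firm comparison. Pi4k2b had 10 UMIs in 198 cells of its own guides, none of them in the 59 cells of gRNA2 (which at 3 counts allows a share of cells with a UMI of up to 5.08%), against 6.99 to 8.51 CPM in sgNT cells. Of these 10 UMIs, 3 were in the 6 cells of anti-PD-1 replicate 1 (22.2 CPM, above the 6.99 CPM of sgNT cells), which the fit leaves out for too few cells. In the other 3 libraries it was at 4.53, 0 and 4.75 CPM, each below sgNT cells, and its log2 fold change was -0.97 ± 0.50 (edgeR adjusted p = 1.0). Plcg2 had 3 UMIs in 280 cells of its guides, in 1.07% of cells (exact 95% interval 0.222% to 3.099%), against 2.78% of sgNT cells, so the gene was near the detection limit in control cells as well. All 3 UMIs were in anti-PD-1 replicate 3, where it was at 2.33 CPM against 2.29 CPM in sgNT cells. In IgG and replicates 1 and 2 it was at 0 against 2.07, 2.60 and 2.66 CPM. Its paralogue Plcg1 stood at 24.6 to 32.2 CPM in sgNT cells. Adcy10 was found in 0 of 284 cells of its guides, which allows a share of up to 1.06% at 3 counts (exact 95% upper limit 1.29%), and in 2 UMIs of 2730 sgNT cells, and was not tested. These intervals and limits cover counting error only.

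Dgkz had the most genes past the threshold of the 5 targets: 23 of 10020 genes were higher than in sgNT cells and 0 were lower at an adjusted p below 0.05 (edgeR; 0.23% called, with 784 genes at an unadjusted p below 0.05). Plcg2 had 3 (all higher, 0.0299%), Pi4k2b 3 (0.0299%; 2 higher, 0.02%, and 1 lower, 0.00998%), Ahcyl1 2 (0.02%; 1 higher, 0.00998%, and 1 lower, 0.00998%) and Adcy10 0. In the 5 targets and sgNT alone, DESeq2 called 1 gene for Pi4k2b (0.0131%; Igkc, with 0 UMIs in Pi4k2b cells) and 0 for Plcg2, Ahcyl1 and Adcy10. Most of these calls came from few cells. Of the 23 genes in Dgkz cells, 14 had over 50% of their UMIs in 1 cell and 8 were seen in 1 cell only, and 4 genes were called without anti-PD-1 replicate 3. The self-test on simulated counts for the Dgkz comparison (9597 genes) recovered 94% of genes raised by a log2 fold change of 1 and 56% of genes lowered by 1. It called 13 of 9397 unchanged genes (0.138%). The simulation changed abundant genes only, at a single fixed dispersion, without library effects or single cells with many UMIs. Its recovery thus does not cover scarce genes, and its share of false calls does not cover genes with most UMIs in 1 cell.

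In Dgkz cells, 5 of the 23 genes were higher in every library and had their UMIs spread over many cells: Bmyc, Abce1, Mettl16, Odc1 and Ftsj3. Bmyc, a member of the Myc family that lacks the DNA-binding end, was at 50.5 CPM in IgG and at 29.8, 29.8 and 71.2 CPM in anti-PD-1 replicates 1 to 3. In sgNT cells it was at 18.6, 18.5, 15.3 and 13.7 CPM. All Dgkz values lay above all sgNT values, and the log2 fold change was 1.44 ± 0.28 (edgeR adjusted p = 0.00061). Among single nontargeting guides with at least 10 cells, 32 of 34, 7 of 8, 9 of 10 and 32 of 32 lay below the Dgkz guide in the same library. A UMI was found in 54 of 209 cells, and 25% of the UMIs came from 1 cell of anti-PD-1 replicate 3. Without that library the log2 fold change was 1.03 and the call was lost.

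Abce1, the ATPase that splits ribosomes after termination, was at 106, 93.7, 97.7 and 88.7 CPM in Dgkz cells (IgG, then anti-PD-1 replicates 1 to 3). The sgNT cells were at 60.7, 70.7, 65.4 and 55.6 CPM. The groups did not overlap, and the log2 fold change was 0.60 ± 0.13 (edgeR adjusted p = 0.0029). With each cell's UMIs of a gene capped at 3 before summing, 4 genes were called (0.0409%), and Abce1 was among them (0.51, edgeR adjusted p = 0.039). It lay above 34 of 34, 6 of 8, 9 of 10 and 31 of 32 single nontargeting guides. The call was lost without IgG (0.55) or without anti-PD-1 replicate 3 (0.58).

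Odc1 encodes ornithine decarboxylase, the entry enzyme of polyamine synthesis. It was at 204, 197, 237 and 197 CPM in Dgkz cells and at 125, 168, 152 and 113 CPM in sgNT cells (log2 fold change 0.59 ± 0.15, edgeR adjusted p = 0.038). Mettl16, an RNA methyltransferase that acts on the transcript of S-adenosylmethionine synthetase, was at 66.2, 42.6, 58.6 and 32.2 CPM against 33.6, 31.0, 31.8 and 28.3 CPM (0.67 ± 0.16, edgeR adjusted p = 0.020). Ftsj3, a methyltransferase of ribosomal RNA processing, was at 71.4, 61.0, 105 and 63.1 CPM against 46.1, 52.6, 60.5 and 40.9 CPM (0.58 ± 0.15, edgeR adjusted p = 0.038). For Odc1 and Ftsj3 the groups did not overlap, whereas for Mettl16 the Dgkz value of replicate 3 lay below the sgNT value of IgG. Each of the 3 calls was lost when IgG, anti-PD-1 replicate 2 or anti-PD-1 replicate 3 was left out, at log2 fold changes of 0.49 to 0.79. When cells needed at least 5 UMIs of their guide, Bmyc alone of the 5 genes kept its call, and the others were at 0.37 to 0.44. With the capped UMIs, Abce1 alone kept its call, whereas Bmyc (0.89), Mettl16 (0.61), Odc1 (0.60) and Ftsj3 (0.44) lost theirs at edgeR adjusted p of 0.13 to 0.39.

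DESeq2, fitted to the sums of the 5 targets and sgNT alone, called 16 of 5570 genes in Dgkz cells (0.287%), among them these 5. The other 11, chosen here after their values were seen, were Cct6a (a chaperonin subunit), Nolc1, Nop16, Rrp15 and Lyar (nucleolar proteins), Pa2g4, Stat5a (a transcription factor below cytokine receptors), Map4k1 (a kinase that restrains receptor signalling) and Dicer1, which were higher, and Glrx (glutaredoxin) and Klrd1 (CD94, a subunit of an inhibitory receptor), which were lower. Each of the 16 had the same direction in all 4 libraries. Glrx was at 33.1, 34.1, 38.0 and 53.7 CPM in Dgkz cells against 58.9, 47.8, 58.8 and 83.0 CPM in sgNT cells. It was lower in each library. In edgeR it did not pass against the pooled sgNT cells (log2 fold change -0.64 ± 0.17, adjusted p = 0.098), passed there with the capped UMIs (-0.68, adjusted p = 0.0499), and passed in the fit of single guides described next.

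Fitted against single nontargeting guides (6231 genes), the same Dgkz cells had 8 calls (edgeR, 0.128%), 4 without cells carrying markers of other types and 0 with the capped UMIs (457 genes at an unadjusted p below 0.05 before). Bmyc, Il1r2, Igha, Igkc and C2cd4b were called in both fits. Glrx was lower (-0.68 ± 0.16, edgeR adjusted p = 0.047; 0.13 with the capped UMIs). Of the listed genes, Areg and Ccr7 were called here and not against the pooled sgNT cells. Areg, amphiregulin, a growth factor on the CREB target list, was at 1.74, 36.9, 25.7 and 0 CPM against 1.75, 9.59, 4.06 and 0.382 CPM (2.36 ± 0.48, edgeR adjusted p = 0.0024; 1.88, adjusted p = 0.19 against pooled sgNT). It was higher in anti-PD-1 replicates 1 and 2 alone, with 52 UMIs in 6 cells. Ccr7, the receptor that guides T cells to lymph nodes, was at 20.9, 73.8, 17.5 and 56.4 CPM against 24.5, 33.1, 24.8 and 3.73 CPM (1.53 ± 0.37, edgeR adjusted p = 0.047; 1.03, adjusted p = 0.39 against pooled sgNT). It was higher in replicates 1 and 3 alone, and 32 of its 123 UMIs were in 1 cell.

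The remaining Dgkz calls were uneven between libraries or cells, and those named here were chosen after their values were seen. Il1r2, the decoy receptor of interleukin-1, was at 3.48 CPM in IgG and at 17.03, 55.5 and 16.1 CPM in anti-PD-1 replicates 1 to 3, against 7.53, 1.14, 2.24 and 4.40 CPM in sgNT cells. It was thus higher under anti-PD-1 and lower in IgG (log2 fold change 2.76 ± 0.43, edgeR adjusted p = 9.7e-07, 80 UMIs in 15 of 209 cells). Without anti-PD-1 replicate 2 its call was lost (1.56). Trav5-4, a variable segment of the T-cell receptor alpha chain, had 18 UMIs in 13 Dgkz cells, of which 8 were in anti-PD-1 replicate 1, 4 in replicate 2 and 1 in IgG, against 7 of 2730 sgNT cells. The segment has near-identical copies in its locus, between which reads may have been divided. Ckap4, a protein of the endoplasmic reticulum, had 22 UMIs in 6 cells. Both kept their calls with capped UMIs (4.23 and 3.20), but Trav5-4 lost its call without anti-PD-1 replicate 1 (3.32) and was under the filter on low counts without replicate 3, and Ckap4 lost its call without anti-PD-1 replicate 2 (1.57).

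Immunoglobulin genes led the Dgkz list by size and came from 1 cell. Igkc had 10956 UMIs in Dgkz cells, of which 10952 were in a single cell of anti-PD-1 replicate 3, and Igha had 4353, of which 99.4% were in 1 cell. Leaving out cells with markers of other types reduced the Dgkz calls from 23 to 12, of which 11 were shared with the full set, though Igkc is itself on the list by which such cells were found. The 5 genes described first kept log2 fold changes of 0.58 to 1.42 without those cells, and Ftsj3 no longer passed (adjusted p = 0.055).

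Mitotic transcripts were lower in Dgkz cells in 3 of 4 libraries, without a gene passing the test. Of 20 G2/M genes, 0 had a log2 fold change above 0 and 7 were lower at an unadjusted p below 0.05 (edgeR). Over all 10020 genes tested, 47.9% were higher and 363 were lower at that p. The median was -0.43 against -0.01 over all genes. In Plcg2 and Pi4k2b cells 18 of the 20 genes were also lower (medians -0.13 and -0.17). In Adcy10 cells 12 were higher, and in Ahcyl1 cells 18 were. Cenpf, a kinetochore protein, was at 45.3, 21.3, 82.2 and 36.3 CPM in Dgkz cells against 113, 101, 78.0 and 106 CPM in sgNT cells (-1.02 ± 0.34, edgeR adjusted p = 0.32). It was at -0.75 without anti-PD-1 replicate 1, and passed without replicate 2 (-1.66, edgeR adjusted p = 0.041). The summed G2/M transcripts were at 1342, 949.6, 2159 and 1127 CPM in Dgkz cells and at 1969, 2014, 1892 and 1936 CPM in sgNT cells. Replicate 2 thus stood above its control and the others below. Single nontargeting guides spanned 512 to 3171 CPM in IgG and 507 to 3257 CPM in replicate 3, and 4 of 34, 0 of 8, 8 of 10 and 3 of 32 of them lay below the Dgkz guide in IgG and replicates 1 to 3. Fewer cycling cells and less of these transcripts in each cell cannot be told apart in such sums. The 20 G1/S genes had a median of -0.01, with 9 higher and 0 at an unadjusted p below 0.05 (edgeR).

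Genes that report on the signals Dgkz restrains did not pass in Dgkz cells. Over all 10020 genes tested 47.9% were higher, and 421 were higher and 363 lower at an unadjusted p below 0.05 (edgeR). Of 18 immediate early genes of the antigen response, 9 were higher (median 0.01), and of 14 NF-kB targets 10 were higher (median 0.14, 3 at an unadjusted p below 0.05). Among 11 tested ERK feedback genes, 3 were higher (median -0.10). The highest of them, Dusp4, a phosphatase of ERK that is itself induced by ERK, was at 54.0, 86.6, 64.8 and 41.6 CPM against 35.9, 55.2, 49.9 and 27.7 CPM in sgNT cells. It was higher in each library (0.54 ± 0.17, edgeR adjusted p = 0.26). Of 12 exhaustion genes 1 was higher (median -0.12), and among 24 genes of a panel of T-cell states 6 were higher (median -0.17), with Crem (-0.54), Slamf6 (-0.53) and Havcr2 (-0.31) at an unadjusted p below 0.05 and edgeR adjusted p of 0.33 to 0.57.

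In Ahcyl1 cells the gene that was higher past the threshold was Trav16n, another receptor alpha segment with near-identical copies, with 17 UMIs in 12 cells against 5 of 2730 sgNT cells. It stood at 3.29, 15.0, 1.97 and 0 CPM in Ahcyl1 cells and at 0.109, 0.325, 0.560 and 0 CPM in sgNT cells (log2 fold change 3.89 ± 0.68, edgeR adjusted p = 0.00038). Without anti-PD-1 replicate 2 it was at 4.61, and without any other library it fell under the filter on low counts and was not tested. Its cells were not spread over the guides: gRNA2 held 8 in anti-PD-1 replicate 1 and 1 in replicate 2, and gRNA3 held 3 in IgG. Ppic, a cyclophilin that had the next smallest p, did not pass (1.24 ± 0.34, edgeR adjusted p = 1.0). It had 41 of its 49 UMIs in gRNA1 cells and was at 0.12 without anti-PD-1 replicate 1. Among the 17 tested genes of IP3 and store-operated calcium signalling, only Ahcyl1 itself passed. Of 20 G2/M genes 18 were higher (median 0.18, 0 past the threshold and 1 at an unadjusted p below 0.05 in edgeR), against 47.8% of all 10020 genes tested. The summed G2/M transcripts were at 1852, 1625, 2876 and 2801 CPM against 1969, 2014, 1892 and 1936 CPM in sgNT cells, higher in replicates 2 and 3 alone.

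Single Ahcyl1 guides gave further calls in the fit of guides against single nontargeting guides (6231 genes). Eif3c, a subunit of translation initiation factor 3, was lower with gRNA2 at 322, 282, 323 and 238 CPM against 411, 395, 394 and 414 CPM in sgNT cells (-0.50 ± 0.10, edgeR adjusted p = 0.0048, 1 gene or 0.016% called). It was lower in all 4 libraries and remained so with capped UMIs (-0.52, adjusted p = 0.0045), but the call was lost without anti-PD-1 replicate 1, without replicate 3, without IgG and with a minimum of 5 cells per sum. With gRNA1, Tfrc (the transferrin receptor, 0.79 ± 0.17) and Il2ra (the interleukin-2 receptor alpha chain, 1.05 ± 0.23) were higher at an edgeR adjusted p of 0.027 each (2 genes or 0.0321% called). Il2ra was lower than in sgNT cells in IgG (58.2 against 68.2 CPM) and higher under anti-PD-1 (118, 167 and 250.1 against 89.5, 70.9 and 58.5 CPM), and neither call held with capped UMIs. The guide gRNA3 had 0 calls (edgeR, 285 genes at an unadjusted p below 0.05; 0 with capped UMIs), and no gene was called for more than 1 Ahcyl1 guide.

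Pi4k2b cells were the fewest, with 133 in IgG and 6, 11 and 48 in anti-PD-1 replicates 1 to 3, so that replicate 1 fell short of the 10 cells required for a sum. Ergic2, a protein of the compartment between endoplasmic reticulum and Golgi, was lower at 36.2, 20.6 and 30.1 CPM in IgG and replicates 2 and 3 against 49.997, 59.9 and 52.3 CPM in sgNT cells. The groups did not overlap (log2 fold change -0.80 ± 0.18, edgeR adjusted p = 0.045), with 58 UMIs in 50 cells. The adjusted p was close to the threshold and the call was lost under each of the 14 alternatives run, leave-one-out fits included (-1.01 to -0.68). Il10 (an inhibitory cytokine) and Ccl9 (a chemokine) were higher by log2 fold changes of 3.21 and 3.30, with 50 of 63 Il10 UMIs and 27 of 28 Ccl9 UMIs in 1 cell of replicate 3. Without that library they were at -1.26 and -0.36.

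Other kinases of the phosphoinositide pathway did not pass in Pi4k2b cells. Of 10 tested 4- and 5-kinases 8 were higher (median 0.20 against -0.03 over all genes, of which 45.0% were higher). Pip5k1c, which makes the phospholipase C substrate, was at 0.77 ± 0.31 (edgeR adjusted p = 1.0) and Pi4k2a, the paralogue, at 0.22 ± 0.27 (adjusted p = 1.0). Exhaustion genes had a median of -0.07, with Tox, a transcription factor of exhausted cells, at -0.48 (unadjusted p = 0.038, edgeR adjusted p = 1.0). Ctla4, an inhibitory receptor, was at 98.5, 308 and 334 CPM in Pi4k2b cells of IgG and replicates 2 and 3 against 103, 327 and 139 CPM in sgNT cells, above its control in replicate 3 alone (0.58 ± 0.20, unadjusted p = 0.0035, edgeR adjusted p = 1.0). By guide, it was higher with gRNA2 alone (1.90 ± 0.29, edgeR adjusted p = 3.2e-06, 3 genes or 0.0481% called), at 828 against 139 CPM in anti-PD-1 replicate 3 and 94.6 against 103 CPM in IgG. The difference was thus in 1 of 2 libraries, where 76 of the 174 UMIs came from 1 cell. Guides gRNA1 and gRNA3 had 0 calls each (edgeR, 309 and 296 genes at an unadjusted p below 0.05; 0 with capped UMIs).

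The 3 genes past the threshold in Plcg2 cells were MHC class II genes, and their UMIs came from few cells. H2-Eb1 and H2-Aa, subunits of class II molecules, and Cd74, their invariant chain, had log2 fold changes of 3.63 ± 0.46, 3.18 ± 0.48 and 2.88 ± 0.42 (edgeR adjusted p from 2.4e-10 to 3.3e-07). Cd74 stood at 38.6, 0, 204 and 13.2 CPM against 13.3, 5.36, 5.32 and 4.11 CPM in sgNT cells, higher in 3 libraries and absent in replicate 1. They were found in 4, 4 and 10 of 280 cells, and 1 cell of anti-PD-1 replicate 2 held 73.1%, 52.5% and 63.0% of the UMIs. None passed without anti-PD-1 replicate 2 (1.81, 2.19 and 1.32).

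The rest of the phospholipase C pathway showed no call in Plcg2 cells. Of 4 tested phospholipase C genes 2 were higher, with Plcg1 at 35.6, 34.2, 31.2 and 38.8 CPM against 31.6, 31.4, 24.6 and 32.2 CPM (0.23 ± 0.18, edgeR adjusted p = 1.0). Proximal receptor signalling genes had a median of 0.02 (14 of 20 higher) and 9 of 18 immediate early genes were higher. Effector cytokines and chemokines were higher for 2 of 12 genes (median -0.32), with 2 at an unadjusted p below 0.05 and 0 past the threshold (edgeR). Over all 10020 genes tested 47.9% were higher, and 164 were higher and 203 lower at an unadjusted p below 0.05. By guide, gRNA1 had 5 calls (0.0802%), of which Gzmf, a granzyme with close paralogues, had 617 of its 620 UMIs in 1 cell, gRNA3 had 1 (H2-Aa, 18 UMIs in 1 cell) and gRNA2 had 0 (188 genes at an unadjusted p below 0.05; 0 with capped UMIs).

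Adcy10 cells had 0 of 10020 genes past the threshold in edgeR (315 at an unadjusted p below 0.05) and 0 in DESeq2, and 1 in edgeR on the 5 targets alone, Gzme, a granzyme with close paralogues that had 2 UMIs in 1 Adcy10 cell. The genes with the smallest p were Ms4a4c, a 4-pass membrane protein, Gm42659, a predicted gene, and Dapl1. Ms4a4c was at 36.8, 8.12, 22.8 and 23.8 CPM in Adcy10 cells against 19.6, 7.15, 6.44 and 9.08 CPM in sgNT cells. It was higher in each library (log2 fold change 1.14 ± 0.26, edgeR adjusted p = 0.22), with only a small margin in replicate 1. Gm42659 was at 14.1, 16.2, 9.62 and 9.75 CPM against 7.10, 7.96, 4.06 and 4.78 CPM, also higher in each library (1.07 ± 0.26, edgeR adjusted p = 0.22). Dapl1 was higher in 3 of 4 libraries (1.78 ± 0.46, edgeR adjusted p = 0.37; 0.98 without anti-PD-1 replicate 2), and passed with gRNA3 alone (2.41 ± 0.51, edgeR adjusted p = 0.014; 41 UMIs in 9 of 134 cells), the guide whose site has no full transcript match. This guide had 2 calls (0.0321%) and none with capped UMIs, and gRNA1 and gRNA2 had 0 (edgeR, 306 and 451 genes at an unadjusted p below 0.05).

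The cAMP genes were near their control levels in Adcy10 cells. Of 17 tested genes of cAMP synthesis, breakdown and sensing 10 were higher (median 0.04), and of 12 CREB targets 7 were higher (median 0.09), with 0 at an unadjusted p below 0.05 in either list (edgeR). Adcy7, a transmembrane cyclase that sgNT cells expressed at 34.2 to 41.5 CPM, was at 0.04 ± 0.16 (edgeR adjusted p = 1.0). Of the 24 panel genes 20 were higher, but the median was 0.09 (-0.00026 over all genes tested) and 0 had an unadjusted p below 0.05.

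The other lipid lists held no call for any of the 5 targets in the fit per target. Diacylglycerol effectors (11 tested, among them Rasgrp1 and the protein kinases C) had medians of -0.01 to 0.09, and the 6 tested diacylglycerol kinases had medians of -0.07 to 0.17. Phosphoinositide 3-kinases and phosphatases (18 tested) had medians of -0.16 to 0.06. In the fit per target, over the 5 targets and all lists of pathway, T-cell state, cell cycle, interferon and metabolic genes, the one member past the threshold was Ahcyl1 itself.

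The number of cells per guide was compared between treatments, scaled to the sgNT cells of each library. Per 100 sgNT cells there were 5.75 Dgkz cells in IgG and 11.8, 11.9 and 7.01 in anti-PD-1 replicates 1 to 3, each above IgG (log2 ratio of anti-PD-1 to IgG 0.81 ± 0.60, edgeR adjusted p = 0.82 over 117 targets and nontargeting guides). Pi4k2b moved the other way, with 10.3 in IgG and 1.86, 2.90 and 6.47 under anti-PD-1, each below IgG (-1.40 ± 0.67, unadjusted p = 0.071, edgeR adjusted p = 0.82). Its 3 guides were at -2.26 ± 1.07, -0.63 ± 1.02 and -1.20 ± 0.97, of the same sign. Dgkz had 1 guide and Pi4k2b had 3, so their numbers per 100 sgNT cells cannot be compared with each other. Dgkz_gRNA1 had 1.96, 4.0, 4.04 and 2.38 times the mean cell number of a nontargeting guide in IgG and replicates 1 to 3. Of the 34 nontargeting guides, 0, 1, 1 and 2 had more cells.

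Adcy10 (0.05), Ahcyl1 (-0.15) and Plcg2 (-0.21) had smaller ratios and their anti-PD-1 values lay on both sides of IgG. With 1 IgG library, 0 of 117 were called (edgeR, 0%; 2 at an unadjusted p below 0.05). Without anti-PD-1 replicate 3, 30 of 117 were called (25.6%), and both Dgkz (1.04, adjusted p = 0.043) and Pi4k2b (-2.09, adjusted p = 9.7e-06) were among them. Anti-PD-1 replicates 1 and 2 share a library name in the labels, and IgG and replicate 3 have other names, so that without replicate 3 the treatment and the name cannot be told apart. With a term for that name, which leaves replicate 3 against IgG, Dgkz was at 0.28 and Pi4k2b at -0.68. This sets 1 library against 1 library, so no p-value is given for it. The nontargeting guides themselves ranged widely, with up to 64, 63, 105 and 64 cells for 1 guide in IgG and replicates 1 to 3 against means of 37.8, 9.5, 11.1 and 21.8.

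Whether anti-PD-1 altered the effect of a knockout was tested as the difference between its log2 fold change under anti-PD-1 and in IgG. For Plcg2, Pi4k2b, Ahcyl1 and Adcy10, 0 of 10020 genes passed in edgeR, with 323, 379, 325 and 241 at an unadjusted p below 0.05 and 0 with capped UMIs. For Dgkz 2 genes passed (0.02%), Igha and Igkc, both from the 1 cell of anti-PD-1 replicate 3 described above, and 0 passed with capped UMIs. With 1 IgG library, its spread was taken to be that of the other libraries.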

How the data were processed

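Gene and guide UMI counts per cell were deposited by the authors as filtered matrices of 10x 3′ v3.1 libraries with guide capture, made with Cell Ranger 3.1.0 on mm10 according to the submitters' processing notes, together with the guide calls per cell. The guide calls were used as deposited. Members and gene lists were chosen with earlier results of these data known. Single-guide cells with at most 10% mitochondrial UMIs were kept. Doublets were not called, and cells with 2 or more called guides were left out.

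Counts were summed per target and library where at least 10 cells were present, and 313 sums of 83 targets and sgNT were fitted in 1 model with library as a block (edgeR 4.0.16, R 4.3.3; filterByExpr, TMM, glmQLFit, glmQLFTest; 10020 genes; Benjamini-Hochberg threshold 0.05). Guides were fitted against single nontargeting guides (121 sums, 6231 genes). Differences between treatments used interaction terms for sgNT and the 5 targets alone. Cells per guide were scaled to sgNT cells. Named genes were the targeted gene, up to 12 called genes with 1 direction in every library, or else the 3 with the smallest p. Cells counted as carrying markers of another type had at least 10 UMIs summed over the B or plasma cell, myeloid, epithelial, acinar, fibroblast, endothelial and erythroid lists. CD4, gamma delta and NK lists were not used for this, since CD8 T cells can use those genes. Guides were matched to GENCODE M21 transcripts (GRCm38). DESeq2 1.42.0, other filters and each library left out were alternatives. The fit per target and the test of cell numbers were tested on simulated data.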

Additional observations from a re-analysis of the deposited data

Results flagged for a closer look

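The difference between anti-PD-1 and IgG in the effect of the Dgkz guide passed the test for Igha and Igkc, the heavy chain of IgA and the kappa light chain, with log2 differences of 7.43 and 15.2 (edgeR interaction term, adjusted p = 2.4e-06 and 4.8e-06). Both rest on 1 cell of anti-PD-1 replicate 3, and 0 genes passed with capped UMIs or without that library.

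Cells with 2 called guides were outside every comparison of expression in the report, and entered the test of cell numbers under 1 alternative (0.87 for Dgkz and -1.30 for Pi4k2b). There were 49 such cells with the Dgkz guide and 746 with a nontargeting guide. Of the genes called in single-guide Dgkz cells, 2 were higher in both libraries that had at least 10 of these Dgkz cells. Over all libraries together, their log2 ratios were 1.72 for Il1r2 (18 UMIs, 16.9 against 5.12 CPM) and 0.39 for Bmyc (27 UMIs, 25.3 against 19.2 CPM). In IgG the Bmyc levels were close, at 20.8 against 19.9 CPM. Other called genes were lower in IgG or replicate 3, the libraries with at least 10 such cells. Ftsj3 was at log2 ratios of -0.09 in IgG and -0.30 in replicate 3, Mettl16 at -1.03 and 0.22, Odc1 at 0.34 and -0.05, and C2cd4b had 0 UMIs in both. Over all libraries together, C2cd4b was at 2.30 (24 UMIs), Ftsj3 at 0.22, Abce1 at 0.19, Mettl16 at 0.057 and Odc1 at 0.052. Igha and Igkc were lower, at 2.81 against 5.60 CPM and 0.94 against 3.55 CPM. These ratios have no test.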

How the results depend on the processing

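Most calls rest on few UMIs, 1 IgG library and, for Dgkz, 1 guide, and the cause of the changes below was not tested unless stated. Under the alternatives, 240 of the values that answer a comparison kept their direction and side of the threshold or stayed near their count, 45 moved, 8 reversed, 5 lost and 2 gained a call. Of the values of single guides and named genes, 445 stayed so, 51 moved, 8 reversed, 73 lost and 5 gained a call. Capping UMIs at 3 per cell and gene (chosen after seeing the data, for genes averaging below 1 UMI per cell) gave 4 calls for Dgkz, 0 for Plcg2, 0 for Pi4k2b and 4 over all guides (22 before), and 0 for the Dgkz treatment difference (2 before). Without cells carrying markers of other types there were 12 calls for Dgkz, 0 for Plcg2, 12 over all guides and 0 for the Dgkz treatment difference, and Igkc in Dgkz was at -2.65 (-0.29 capped), H2-Eb1 at -0.71, Cd74 at -0.41 and H2-Aa at -0.996 in Plcg2. Igkc, Cd74 and H2-Aa are on the lists by which those cells were left out, so their fall follows from the filter. DESeq2 on the 5 targets and sgNT alone gave 0 for Plcg2, 1 for Pi4k2b (Igkc, at 0 UMIs) and 0 for Ahcyl1, whose own transcript was at -0.88. edgeR on the 5 targets alone gave 10 for Dgkz, 0 for Plcg2, 0 for Pi4k2b, 0 for Ahcyl1 (own transcript -0.89) and 1 for Adcy10. List members past the threshold then numbered 1 for Dgkz, 0 for Ahcyl1 and 1 for Adcy10 (0 for Ahcyl1 with DESeq2). A minimum of 5 guide UMIs gave 0 for Plcg2, 1 for Ahcyl1 and 1 list member each for Dgkz and Pi4k2b. No filter on low counts gave 383 calls over all guides, since scarce genes entered.

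Sample titles number replicates only within 1 library name under anti-PD-1 (other numbers follow sample order), so no number pairs libraries across treatments and the block paired the target and sgNT sums of a library. Without this replicate block there were 15 calls for Dgkz and 0 for Pi4k2b, and no other count of calls moved by over 1.5 times. For cells per target, TMM scaling gave 0.082 for Plcg2, 0.21 for Ahcyl1 and 0.42 for Adcy10 (0.05 before), and 5 guide UMIs gave -0.10 for Adcy10. A term for the library name gave 0.48 for Plcg2, -0.26 for Adcy10, -0.48 for Ahcyl1 (-0.15 before), 0.28 for Dgkz (0.81 before) and -0.68 for Pi4k2b (-1.40 before).

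Leaving out 1 library gave 0 to 4 calls for Plcg2, 0 to 2 for Pi4k2b, 4 to 25 for Dgkz, 0 to 1 for Ahcyl1 and 11 (without anti-PD-1 replicate 2) to 40 (without IgG) over all guides. List members ranged from 0 to 1 for Dgkz and for Ahcyl1, the Ahcyl1 transcript from -1.002 to -0.77 and the Dgkz treatment difference from 0 to 2 genes. Cells per target ranged from -0.78 to 0.056 for Plcg2, -2.09 to -1.11 for Pi4k2b, 0.69 to 1.04 for Dgkz, -0.54 to 0.042 for Ahcyl1 and -0.049 to 0.19 for Adcy10, with 0 to 30 targets and 0 to 50 guides called. Igkc in Dgkz ranged from -3.02 to 10.03, Il10 in Pi4k2b from -1.26 to 4.01 and Ccl9 from -0.36 to 4.02.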

Other observations

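In cells with 2 called guides, 1 of them against a target and compared with 2-guide cells carrying a nontargeting guide, Ahcyl1 was lower by a log2 ratio of -0.30 in 62 Ahcyl1 cells and Ergic2 by -0.75 in 42 Pi4k2b cells, each in both libraries with at least 10 cells. Abce1 in 49 Dgkz cells was at 0.19, higher in 1 of 2 such libraries, and Ms4a4c in 66 Adcy10 cells was at 0.70. The second guide differed between these cells and no test was made.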
